A study of Mus musculus with 6 samples.

Results

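The subject is the set of nuclear genes for the mitochondrial respiratory chain, complexes I to V, in myeloid-derived suppressor cells (MDSCs) with and without Pim1. Members were every row of the authors' deposited gene table that had been tested and whose symbol begins with Nduf, Uqcr, Atp5 or Cox4 to Cox8, or is Sdha, Sdhb, Sdhc, Sdhd, Cyc1 or Cycs. This gave 90 of 11079 tested rows: 44 for complex I, 4 for complex II, 9 for complex III, 15 for complex IV, 17 for complex V, and cytochrome c (Cycs). A further 4 rows with such symbols (Ndufa4l2, Cox7b2, Cox8b and Cox8c) were not tested by the authors.

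Femur marrow of C57BL/6 or Pim1-/- mice was cultured with the cytokines GM-CSF (40 ng/mL) and IL-6 (40 ng/mL) over 7 days, and both groups are labelled as C57BL/6 strain and CD11b+ Gr1+ cells. There were 3 libraries of wild type (genotype WT) and 3 of Pim1-/-, prepared by Smart-seq2, a method that reads polyadenylated RNA. The Pim1 allele is not described further in the labels, nor are the sex and age of the mice. The deposited table holds 1 pooled value per gene and genotype, so the spread between the libraries is not shown by it, and depth per library is unknown. Values were read as FPKM, fragments scaled by transcript length and library size, a scaling meant to let levels be compared between genes. How well it does so for the members, whose transcripts are short (median 713.5 bases, against 2051.5 over tested genes), was not tested.

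The respiratory chain lies in the inner mitochondrial membrane. Complex I oxidises NADH and complex II succinate, both pass electrons through ubiquinone to complex III, and cytochrome c carries them on to complex IV, which reduces oxygen. The proton gradient made on the way drives complex V, the ATP synthase. Parts of complexes I, III, IV and V are encoded by mitochondrial DNA, and the deposited table has 0 rows on the mitochondrial chromosome, so what follows covers the nuclear part. Suppressor cells of this kind are known to use both glycolysis and oxidative phosphorylation.

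In the authors' deposited table Pim1 itself fell, with 90.2 in wild type and 22.7 in the knockout (log2 fold change -1.99, error 0.25, q = 0.000831). Each error was obtained as the ratio of the fold change to its test statistic, and q is the deposited p-value adjusted over all tested rows. A gene is called when q is under 0.05. Of the antigens behind the CD11b+ Gr1+ label, CD11b (Itgam) was at 138.8 and 151.8 and was not called in the authors' deposited table. Ly6c2, part of the Gr1 epitope, was at 392.4 and 997.1 and its relative Ly6c1 at 5.74 and 15.4, both called higher. Ly6g, also a listed marker, had no row among those used here and was not analysed. Summed over the marker lists in the authors' deposited table, 10 neutrophil genes went from 2515 to 9405 (7 called higher, 0 lower), 7 monocyte genes from 1172 to 1686 (3 higher, 1 lower) and 7 macrophage genes from 3678 to 4254 (0 called, 2 at an unadjusted p under 0.05). The 7 dendritic cell genes summed to 61.0 and 25.1, with 1 of 3 tested lower, whereas 5 T and B cell genes summed to 0.389 and 0.460 and 3 erythroid genes to 0 and 0.0173. Few genes carried these sums: without S100a8 and S100a9 the other 8 neutrophil genes were at 837.1 and 1119, without Ly6c2 the other 6 monocyte genes at 779.2 and 689.1, and without Itgax, which macrophages express as well, the other 6 dendritic cell genes at 1.96 and 1.10 in the authors' deposited table. Of the tested genes, 70.0% were called in the neutrophil list and 57.1% in the monocyte list. In the dendritic cell list 33.3% were called and in the macrophage list 0%, against 13.5% of all tested rows. In such mixed cells, fewer cells of a type and less RNA per cell cannot be told apart, and the part of the marker shifts in any value below was not tested.

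Respiratory chain RNA was abundant and nearly level between the genotypes. In the authors' deposited table the members summed to 40298 in wild type and 40558 in the knockout, 5.16% and 5.44% of all estimated values. Of the 90 members, 5 were called: Ndufa4 and the complex I assembly factor Ndufaf7 rose, and Cox7a2l, Uqcrh and Uqcrfs1 fell. The called share was 5.56%, against 13.5% of all tested rows. By direction, 2 members rose against a background of 6.79% of tested rows, and 3 fell against 6.73%. The background was 19.0% in rows with a mean of at least 100, a level that 68 members reached, 4 of them called. When the deposited test statistic was instead read as a normal deviate, 3.31% of rows were called and 0 of the members, with 0.10 as the smallest adjusted p, that of Cox7a2l. By the deposited p, 13 members were under 0.05 before adjustment, as were 2671 of the 11079 tested rows.

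**Figure D1:**
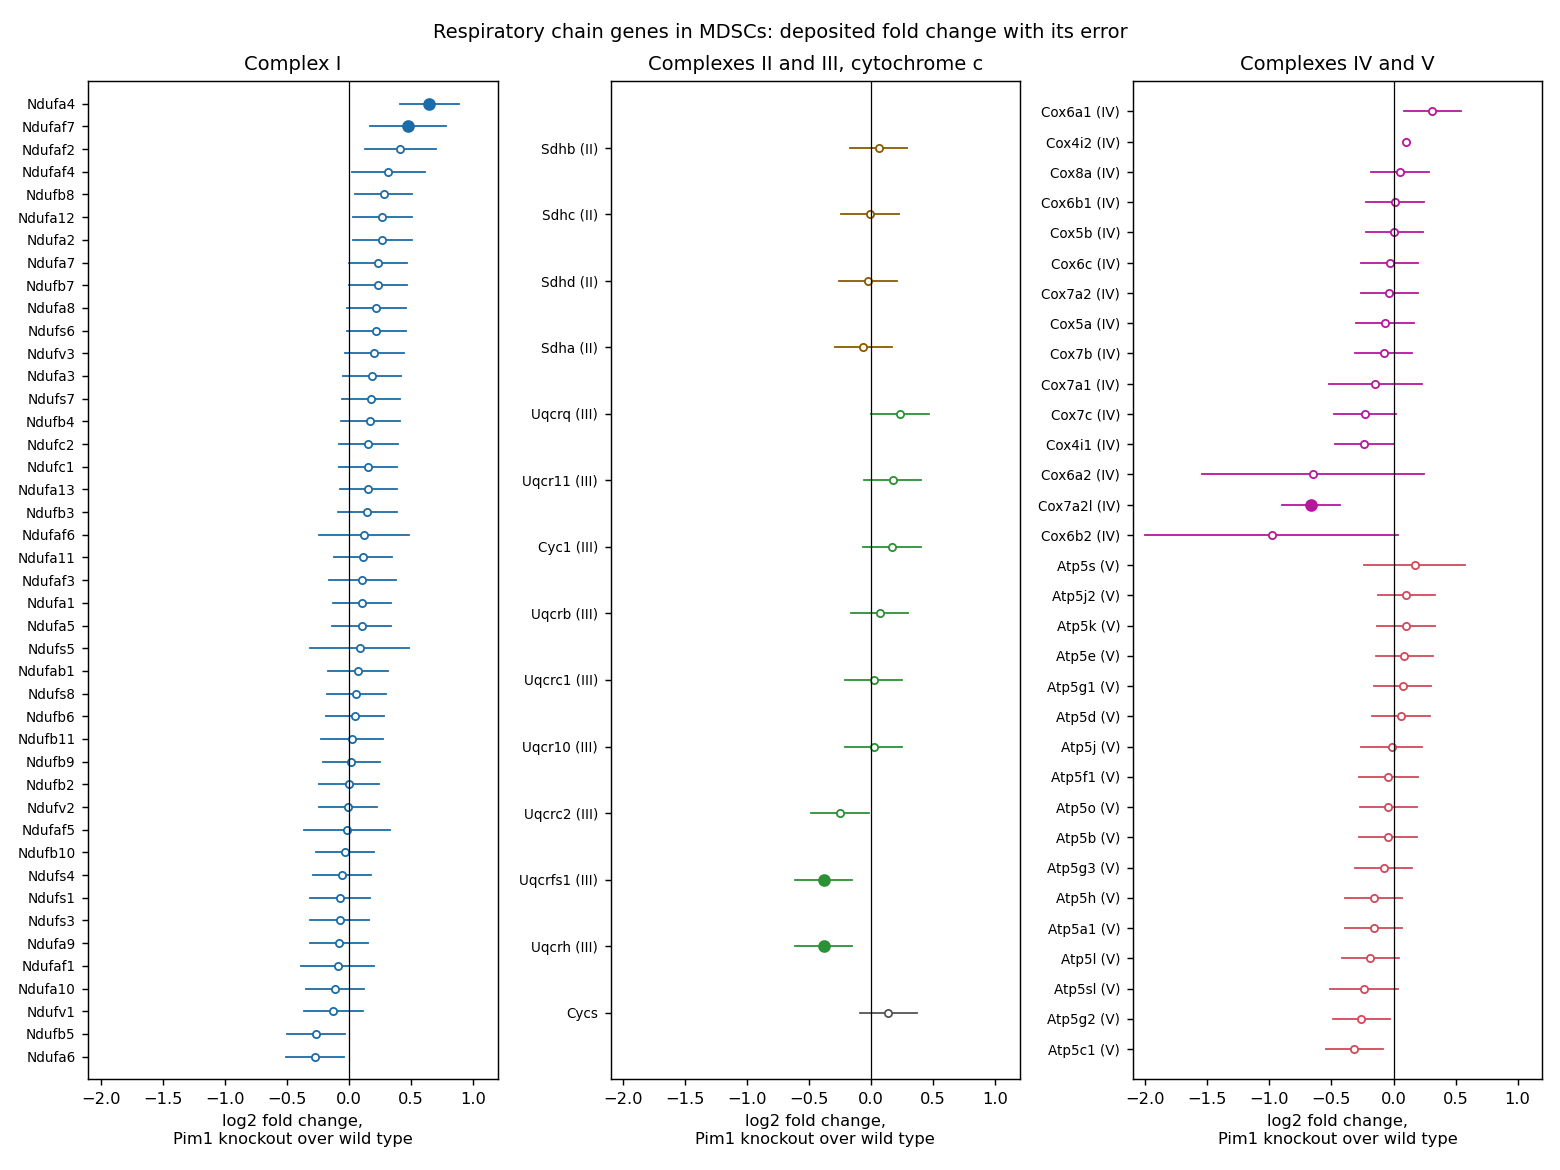
Log2 fold change of 89 members, Pim1 knockout over wild type, in 3 panels by complex. Points are the deposited fold changes, lines reach 1 error to each side (left out for Cox4i2, whose error is 4.06), and filled points are the 5 called genes. Of the 88 lines drawn, 71 cross 0.

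Fold changes were small in either direction, with 50 members above 0 and 40 below, or 63 and 27 when both columns were brought to the same total. In the authors' deposited table the members' median log2 fold change was 0.02 with an interquartile range from -0.08 to 0.15, beside 0.01 and a range from -0.19 to 0.19 over all tested rows. Without its sign, the median was 0.12 for the members, 0.19 for all tested rows and 0.19 for rows with a mean of at least 100. Within 0.25 of 0 lay 72 members (80.0%), against 61.3% of all tested rows. No member reached a 2-fold difference, which 5.35% of tested rows did. The median error of a member's fold change was 0.23, and 73 members had a fold change smaller than their own error. The same held for 7878 of the 11079 tested rows, and these errors are wider than those behind the deposited p-values.

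**Figure D2:**
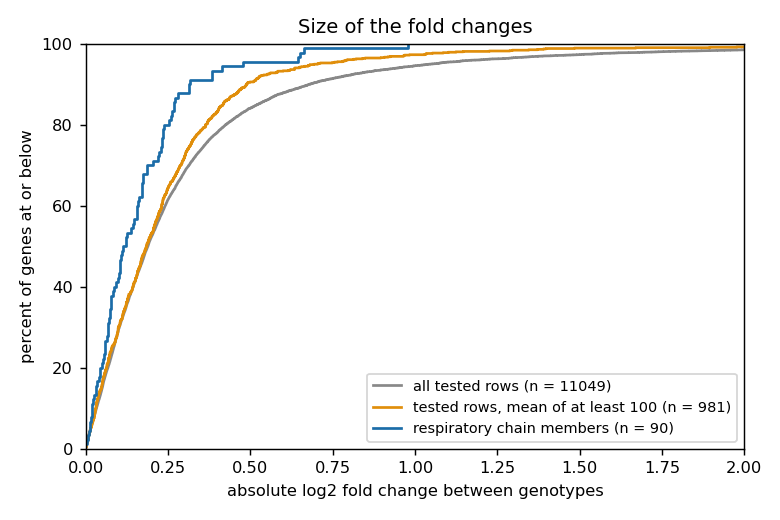
Share of genes (y axis, percent) whose absolute log2 fold change is at or below the value on the x axis, for the 90 members, all tested rows with both values above 0, and the 981 rows with a mean of at least 100. The curve of the members rises first: 80.0% of them lie within 0.25.

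Start-site sequences of the called members are shown first, since the promoter is where the factors known to drive respiratory chain genes bind, among them NRF1, GABPA of the ETS family and YY1. Each run is the 150 bases before the annotated start, 5′ to 3′ along the gene, from RefSeq on build GRCm38.p6. Capitals mark a match to the NRF1 core CGCATGCG, the ETS core CCGGAAG or the YY1 core AAGATGGC on either strand. No 2 of these motifs overlap in the runs shown. The gene Ndufa4 lies on the minus strand (chr6:11907451-11907600), Cox7a2l on the minus strand (chr17:83514334-83514483), Uqcrh on the minus strand (chr4:116075071-116075220), Uqcrfs1 on the minus strand (chr13:30545317-30545466) and Ndufaf7 on the plus strand (chr17:78936985-78937134). Cycs on the minus strand (chr6:50566570-50566719) and a start of Atp5j on the minus strand (chr16:84834977-84835126), both not called, are shown because they hold the NRF1 core.
Ndufa4: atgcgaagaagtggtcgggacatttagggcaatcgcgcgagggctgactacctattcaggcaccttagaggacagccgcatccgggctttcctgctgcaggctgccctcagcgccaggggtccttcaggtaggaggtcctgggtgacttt
Cox7a2l: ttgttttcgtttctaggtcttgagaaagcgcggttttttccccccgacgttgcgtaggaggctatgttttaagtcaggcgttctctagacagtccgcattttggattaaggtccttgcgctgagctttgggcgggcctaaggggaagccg
Uqcrh: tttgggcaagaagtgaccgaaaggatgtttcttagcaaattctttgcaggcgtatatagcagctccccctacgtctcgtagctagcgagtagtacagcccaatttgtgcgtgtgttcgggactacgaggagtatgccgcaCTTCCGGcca
Uqcrfs1: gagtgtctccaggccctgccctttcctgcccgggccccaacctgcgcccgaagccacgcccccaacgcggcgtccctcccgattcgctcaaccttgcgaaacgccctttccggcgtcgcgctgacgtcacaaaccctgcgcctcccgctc
Ndufaf7: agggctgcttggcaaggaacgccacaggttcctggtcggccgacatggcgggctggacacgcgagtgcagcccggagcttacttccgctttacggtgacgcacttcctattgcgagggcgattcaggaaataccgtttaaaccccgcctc
Cycs: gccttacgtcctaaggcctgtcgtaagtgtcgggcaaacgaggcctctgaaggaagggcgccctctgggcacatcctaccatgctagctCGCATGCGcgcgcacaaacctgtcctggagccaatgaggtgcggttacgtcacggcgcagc
Atp5j: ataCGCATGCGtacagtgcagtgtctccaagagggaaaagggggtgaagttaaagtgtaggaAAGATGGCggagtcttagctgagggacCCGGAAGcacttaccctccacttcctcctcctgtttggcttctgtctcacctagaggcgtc

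Of these runs, the ETS core stood in that of Uqcrh and none of the 3 motifs in those of the other 4 called genes. A window of 300 bases, from 250 before to 50 after the start, was found for 75 members. The NRF1 core was in the windows of 12 of the 75 (16.0%), against 4.60% of 8854 tested genes with an entry and 2.07% of all 27025 genes with one. Of the 75, 11 held the YY1 core (14.7%, against 5.84% of tested genes and 3.19% of all) and 17 the ETS core (22.7%, against 21.8% and 9.93%). In total 34 of the 75 held at least 1 of the 3 motifs (45.3%, against 29.5% of tested genes). The 12 members with the NRF1 core had a median log2 fold change of 0.11 and 0 of them were called, and the 63 without it had a median of 0.02 and included the 5 called genes. The called share was 13.5% over all tested rows and 5.56% over the 90 members. With so few genes, the count of 0 cannot be read closely. A match says that these letters are present, not that a factor binds. Among the 15 members not matched to a window were Atp5a1, Cox4i1, Cox4i2, Cox6a2, Cox6c, Cyc1, Ndufa2, Ndufaf6, Ndufb9, Ndufs1, Sdhc, Uqcrb, Uqcrc2 and Uqcrq.

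Complex I held the most members and leaned higher. Of its 44 genes, 31 had a fold change above 0 and 13 below, the median on the log2 scale was 0.11, and the summed value went from 10943 to 12002, a difference of 9.68%, in the authors' deposited table. Over all tested rows 5753 were above 0 and 5296 below. The genes share the same pooled libraries, so such counts are not independent, and the median error in complex I was 0.24. Of the 44, 2 were called, 4.55%, below the background of 13.5%, and 7 had an unadjusted p under 0.05. Ndufa4, 1 of those 2, is now known as a subunit of complex IV; counted there, complex I had 1 of 43 called (2.33%). The roles within complex I are described in turn, and differences between them were not tested.

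For the 7 core subunits, which include those that carry the flavin and the iron-sulfur clusters, the median was -0.07, 2 were above 0 (3 at equal totals) and 5 below, and 0 were called in either reading of the test, nor had any an unadjusted p under 0.05. Ndufv1, which binds NADH and the flavin, was at 67.5 and 61.9 (log2 fold change -0.13, error 0.24) in the authors' deposited table. Its partner Ndufv2 was at 115.1 and 114.6, and Ndufs1, the largest subunit and holder of several clusters, was at 30.9 and 29.4 in the authors' deposited table. These 3 form the tip where NADH is oxidised, and none of them differed by as much as 1 error.

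Ndufs3, a further core subunit, was at 136.0 and 129.3 in the authors' deposited table. The 2 core genes above 0 were Ndufs7, the carrier of the last cluster before ubiquinone, at 221.9 and 250.5 (log2 fold change 0.18, error 0.23), and Ndufs8 at 166.6 and 173.7. The authors' deposited table thus places the core genes between 29.4 and 251, a range of nearly an order of magnitude among subunits present once per complex.

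The 30 supernumerary subunits, small proteins around the core, were above 0 in 24 cases, with a median of 0.13, and they summed to 9982 and 11014 in the authors' deposited table. The 14 genes of the Ndufa series had a median of 0.14 (11 above 0), the 10 of the Ndufb series, which build the far end of the membrane arm, 0.04 (8 above 0), and Ndufc1 and Ndufc2 were both at 0.16. The member with the largest rise was Ndufa4, with 233.0 in wild type and 365.5 in the knockout in the authors' deposited table, or 1.57-fold (log2 fold change 0.65, error 0.24, q = 0.000831). Ndufa4 was first assigned to complex I, as its name shows. Its relative Ndufa4l2, which hypoxia induces in other cells, was listed at 0.251 and 0.481 and not tested.

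Below Ndufa4 no supernumerary gene was called. Ndufb8 (512.6 and 623.3, log2 fold change 0.28, error 0.23, q = 0.151), Ndufa12 (221.2 and 266.6, q = 0.208) and Ndufa2 (582.0 and 701.0, q = 0.198) came next in the authors' deposited table. At the other end were Ndufa6 (476.8 and 394.6, log2 fold change -0.27, error 0.23, q = 0.181) and Ndufb5 (205.0 and 170.7, log2 fold change -0.26, q = 0.198). The 2 most abundant complex I genes, Ndufa3 (876.8 and 997.3) and Ndufv3 (729.9 and 841.1), had log2 fold changes of 0.19 and 0.20 in the authors' deposited table, each below its error. Ndufab1, which also serves as the acyl carrier protein of mitochondrial fatty acid synthesis, was at 123.3 and 129.8.

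Assembly factors of complex I were far less abundant, from 3.04 to 44.6 over both genotypes in the authors' deposited table. Such factors help build the complex and are not part of it when finished. Ndufaf7, a mitochondrial methyltransferase, rose from 5.44 to 7.58 (log2 fold change 0.48, error 0.31) in the authors' deposited table, with q = 0.0499, just under the threshold. Ndufaf2, a relative of Ndufa12 that holds its place during assembly, was at 33.4 and 44.6 (log2 fold change 0.42, error 0.29, q = 0.0830), and Ndufaf4 at 4.01 and 5.00 (q = 0.226). The lowest member of complex I, Ndufaf5, was at 3.08 and 3.04 in the authors' deposited table. Of the 7 factors 5 were above 0, with a median of 0.12.

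**Figure D3:**
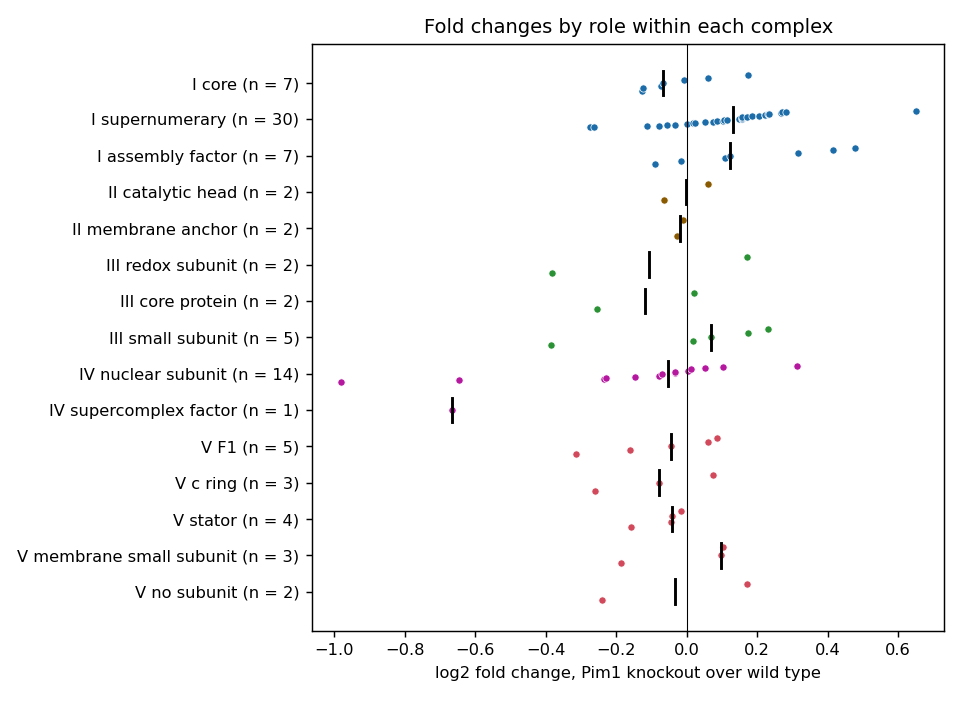
Log2 fold change (x axis, Pim1 knockout over wild type) of the members grouped by role within complexes I to V. Each point is a gene, offset vertically only for legibility, and the black bar is the median; Cycs is not shown. The 7 core genes of complex I have a median of -0.07 and the 30 supernumerary genes one of 0.13.

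No gene of complex II was called. Sdha, the flavoprotein that oxidises succinate, was at 101.6 and 97.2 (log2 fold change -0.06, error 0.23), and the iron-sulfur protein Sdhb at 273.3 and 284.9 (0.06, error 0.23) in the authors' deposited table. The membrane anchors Sdhc (178.0 and 176.9) and Sdhd (117.4 and 115.3) had log2 fold changes of -0.01 and -0.03. None of the 4 had an unadjusted p under 0.05, 0 were called in either reading of the test, against 13.5% of tested rows, and their sum was 670.3 and 674.3 in the authors' deposited table.

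In complex III, 2 of 9 genes fell and 0 rose. Uqcrfs1, the Rieske iron-sulfur protein that takes the first electron from ubiquinol, fell in the authors' deposited table, from 190.8 to 146.4 (log2 fold change -0.38, error 0.23, q = 0.0342). Uqcrh, the hinge protein between cytochrome c1 and cytochrome c, fell from 1112 to 852.0 (log2 fold change -0.38, error 0.23, q = 0.0315) in the authors' deposited table. Both fold changes were of like size although Uqcrh was the more abundant gene. The count was 22.2% of 9 genes, against a background of 13.5%, and with so few genes no share can be read closely.

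The other electron-carrying subunit, cytochrome c1 (Cyc1), was on the opposite side, at 141.7 and 159.5 (log2 fold change 0.17, error 0.23, q = 0.493) in the authors' deposited table. Of the core proteins, Uqcrc2 was at 95.6 and 80.1 (log2 fold change -0.25, error 0.23, q = 0.224) and Uqcrc1 at 173.2 and 175.8. The remaining small subunits were all above 0: Uqcrq (516.8 and 606.8), Uqcr11 (794.6 and 895.9), Uqcrb (814.7 and 854.0) and Uqcr10 (726.2 and 736.1), with q from 0.281 to 0.961. Subunits of complex III thus lay on both sides of 0, 3 below and 6 above, and its sum differed by -1.29% in the authors' deposited table. Cytochrome c (Cycs), the carrier between complexes III and IV, was at 69.6 and 76.6 (log2 fold change 0.14, error 0.23), and the testis form Cyct was listed at 0 in both genotypes.

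Complex IV held the gene with the highest mean of the set, Cox4i1, at 2406 and 2045 in the authors' deposited table (log2 fold change -0.23, error 0.24, q = 0.304). Cox8a, higher than Cox4i1 in the knockout, was at 2047 and 2123, then came Cox6b1 at 1684 and 1699 and Cox6c at 1465 and 1433. Cox6a1 was the gene of this complex most above 0, at 1058 and 1315 (log2 fold change 0.31, error 0.23, q = 0.102) in the authors' deposited table. Cox7c, at 234.1 and 199.7, had a log2 fold change of -0.23 and an error of 0.25. Of the 15 genes 5 were above 0 and 10 below (7 and 8 at equal totals), with a median of -0.07. Of these 1 was called (6.67%, against 13.5% of tested rows), or 2 of 16 (12.5%) with Ndufa4 counted in this complex.

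The called gene among the 15 was Cox7a2l, also called SCAF1, whose full-length form joins complex III to complex IV in supercomplexes. C57BL/6 mice, the labelled strain of both groups, carry a short form, and supercomplexes were not measured here. In the authors' deposited table Cox7a2l stood at 516.7 in wild type and fell to 326.0, or 1.58-fold lower (log2 fold change -0.66, error 0.23, q = 0.000831). Cox7a2, the paralog that sits in complex IV outside such supercomplexes, was at 513.4 and 501.5 (log2 fold change -0.03, error 0.23). The 2 genes thus stood at nearly the same level in wild type, a ratio of Cox7a2 to Cox7a2l of 0.994, whereas in the knockout the ratio was 1.54 in the authors' deposited table. The ratio itself was not tested.

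Tissue-specific forms of complex IV subunits were below their common counterparts in both genotypes. Muscle and heart forms were at 32.6 and 29.5 for Cox7a1 and at 1.23 and 0.786 for Cox6a2, and Cox8b was listed at 0 in both, in the authors' deposited table. Cox4i2, the lung and hypoxia form, was at 0.655 and 0.704, with Cox4i1 higher by factors of 3671 and 2902. Testis forms were at 2.08 and 1.05 for Cox6b2 and listed at 0 for Cox8c, and Cox7b2 was at 0.0433 and 0. The log2 fold change of Cox6b2 was the lowest of all members, -0.98, with an error of 1.02 (q = 0.190) in the authors' deposited table, and its p before adjustment was 0.0440.

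**Figure D4:**
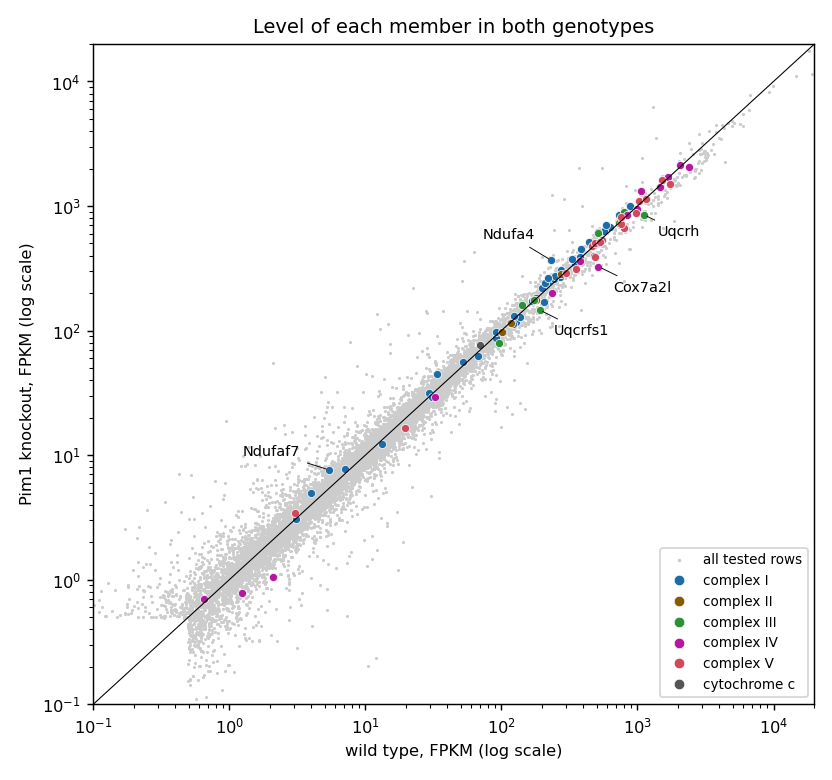
Level of each member in wild type (x axis) and Pim1 knockout (y axis), both in FPKM on log scales, over all tested rows in grey, with the line of equal levels. The 5 called members are named: Ndufa4 and Ndufaf7 lie above the line, and Cox7a2l, Uqcrh and Uqcrfs1 below it.

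In complex V, 0 of 17 genes were called by the deposited q, 1 had an unadjusted p under 0.05, and the background was 13.5%. That gene was Atp5c1, the rotating gamma subunit, at 483.3 and 388.6 (log2 fold change -0.31, error 0.23, q = 0.0962) in the authors' deposited table. The catalytic beta subunit Atp5b was at 551.1 and 534.5, and Atp5a1, the alpha subunit, at 350.9 and 313.9. Those 3 largest subunits of F1 were below 0 in the authors' deposited table. The small delta and epsilon subunits, Atp5d (461.3 and 480.9) and Atp5e (1513 and 1605), which form the central stalk with gamma, were above it. Stalk genes thus lay on both sides of 0. The log2 fold change of Atp5b, -0.04, was smaller than the shift of 0.07 at equal totals.

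The 4 stator genes Atp5f1, Atp5h, Atp5j and Atp5o, which hold the head still, were all below 0, from -0.16 to -0.01 (1 of the 4 at equal totals), and summed to 2964 and 2826 in the authors' deposited table. The membrane ring is made of 1 mature protein from 3 genes. Of these Atp5g2 was at 791.4 and 661.3 (log2 fold change -0.26, error 0.23, q = 0.211), Atp5g3 at 758.1 and 718.3 and Atp5g1 at 483.3 and 508.8, so that together they gave 2033 and 1888 in the authors' deposited table. The gene of the complex with the highest mean was the small membrane subunit Atp5l, at 1724 and 1515 (q = 0.429), which was below Atp5e in the knockout and shares 68.5% of its 50-base runs with other genes. Atp5k and Atp5j2, also small membrane subunits, had log2 fold changes of 0.10 and 0.10. The least abundant member of this group was Atp5s, no subunit of the enzyme, at 3.02 and 3.40 (log2 fold change 0.17, error 0.41) in the authors' deposited table.

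Complexes IV and V, at 12168 and 11882 in wild type, were each more abundant than complex I per length despite fewer genes, and in the knockout the 3 sums were 11818, 11481 and 12002 in the authors' deposited table. The differences of the sums were -2.88% for complex IV and -3.38% for complex V, and turned to 1.66% and 1.14% with both columns at the same total, where that of complex III turned to 3.32% and that of complex I was 14.8%. Without Cox4i1 the sum of complex IV differed by 0.11%, and without Cox7a2l by -1.37%. With Ndufa4 counted in complex IV, the log2 ratio of the summed values was 0.12 instead of 0.13 in complex I. In complex IV it was then -0.03 instead of -0.04. Complex V had 6 genes above 0 and 11 below, or 10 and 7 at equal totals. These signs depend on how the genotypes are scaled. With both columns brought to the same total, all fold changes moved by 0.07, complex I had 35 above 0 and 9 below, complex IV 7 and 8, complex V 10 and 7, and the stator genes 3 above and 1 below. The median of all tested rows was then 0.08.

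**Figure D5:**
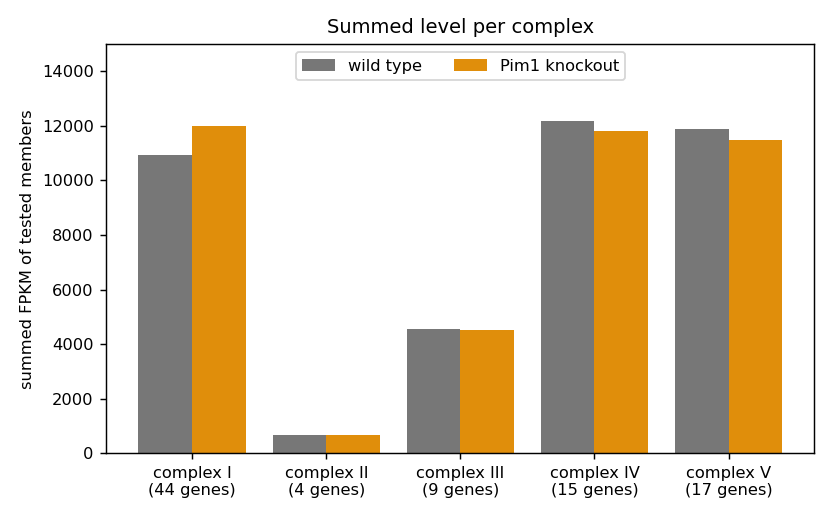
Summed FPKM of the tested members of complexes I to V (y axis, from 0) in wild type (grey) and Pim1 knockout (orange). The sum of complex I, with Ndufa4 counted in it, is 9.68% higher in the knockout, and the other 4 sums differ by under 4%. All 5 are higher in the knockout at equal totals. The bars are pooled values without error bars.

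Position and sequence were described as well. The build of the deposited coordinates is not settled, so distances are within those coordinates only. The members lie on 19 chromosomes, and 7 of them share chromosome 17 with Pim1. Of those 7, Ndufaf7 rose and Cox7a2l fell, at 49.7 and 54.3 megabases from Pim1 in the deposited coordinates. That is 28.6% called, against 13.5% of all tested rows, and with so few genes no share can be read closely. The 3 members within 10 megabases, Ndufv3, Ndufa7 and Ndufb10, were not called, with log2 fold changes of 0.20, 0.23 and -0.03 in the authors' deposited table. The assembly factor Uqcc2, which rose and is described with its list, lies 2.37 megabases from Pim1. Many members have copies elsewhere in the genome: 40 of the 90 share at least 1 identical run of 50 bases with another gene annotated in GENCODE M21, so their values are uncertain. Ndufa4 and Uqcrfs1 share none, Ndufaf7 shares 2.82% of its runs, Uqcrh 7.83%, with the pseudogene Uqcrh-ps1, and Cox7a2l 17.7%, with Gm6969. The largest share was that of Atp5l, 68.5%. Members have short transcripts, with a median of 713.5 bases against 2051.5 over tested genes, and Spearman's rho between transcript length and log2 fold change was -0.19 over the 90 members and -0.04 over 10518 tested genes, values that share the same pooled libraries.

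Genes around the chain were counted in the same way, against the 13.5% of all tested rows. Among 41 tested assembly factors outside the member rule, 7 had an unadjusted p under 0.05, and 1 rose and 0 fell (2.44% called, median log2 fold change 0.03). It was Uqcc2, needed for complex III assembly, which rose from 132.3 to 189.4 (log2 fold change 0.52, error 0.25, q = 0.00669) in the authors' deposited table. The most abundant of them, the copper chaperone Cox17, was at 313.3 and 371.7. Regulators of mitochondrial biogenesis had 0 of 18 called, with 2 at an unadjusted p under 0.05 and a median of -0.05. Nrf1 was at 6.00 and 6.75, Gabpa at 3.75 and 3.78 and the mitochondrial transcription factor Tfam at 4.99 and 4.47, and the most abundant, the single-strand binding protein Ssbp1, at 28.6 and 28.4 in the authors' deposited table.

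Of 18 genes of the TCA cycle and pyruvate dehydrogenase, 1 fell and 0 rose (5.56% called), with a median of -0.03. Idh3g, a subunit of the NAD-dependent isocitrate dehydrogenase, fell from 120.3 to 90.1 (log2 fold change -0.42, error 0.24, q = 0.0184) in the authors' deposited table. Of its partner subunits, Idh3b was at 131.45 and 98.1 (log2 fold change -0.42, q = 0.0605) and Idh3a at 23.2 and 26.5 (log2 fold change 0.19, q = 0.447). The most abundant gene of the list, Mdh2, was at 235.9 and 239.3. Of 8 genes that feed electrons to ubiquinone by other routes, 1 fell (12.5%): Sqrdl, which oxidises sulfide, from 79.7 to 61.1 (q = 0.0413), beside the most abundant, Etfb, at 242.6 and 267.9 in the authors' deposited table. In coenzyme Q synthesis 1 of 13 fell (7.69%), Adck3, from 3.13 to 1.71 (q = 0.0203), and the most abundant, Coq7, was at 37.0 and 41.7 in the authors' deposited table.

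A list of mitochondrial carriers and uncoupling genes also held the outer membrane channels Vdac1, Vdac2 and Vdac3 and the ATP synthase inhibitor Atpif1. Of its 13 tested genes 0 were called and 1 had an unadjusted p under 0.05, with a median of -0.09. The uncoupling protein Ucp2 was at 1686 and 1581, and the ADP/ATP carriers Slc25a4 and Slc25a5 were at 225.5 and 186.0 and at 557.9 and 475.4 in the authors' deposited table. Of 7 tested genes, Cox4i2 among them, by which hypoxia is known to alter the chain, 1 fell (14.3%) and 3 had an unadjusted p under 0.05. The called gene was the mitophagy receptor Bnip3, which fell from 196.9 to 153.0 (q = 0.0499) in the authors' deposited table. Bnip3l, at 93.9 and 74.1 (q = 0.0627), and Pdk1, at 19.5 and 15.5 (q = 0.0932), were not called. In this list 4 genes were below 0 and 3 above. The normal-deviate reading called 0 genes of these 7 lists.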

How the data were processed

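RNA of 3 wild-type and 3 Pim1 knockout libraries was measured; nothing states that they came from separate mice, so their spread may be technical. The FPKM values, log2 fold changes, test statistic (a score per gene), p-values and q-values are the authors' own, deposited as 1 table of 24312 rows with a pooled value per gene and genotype. The FPKM unit was read from the column layout, and the sources used here do not give the aligner, annotation or scaling. Adjusting the deposited p-values by Benjamini-Hochberg over 11079 tested rows gave the deposited q-values within 5.28e-07. The deviates behind these p-values were 1.74 times the test statistic (median), so the printed errors are wider than those behind the calls, and an alternative read the statistic itself as a normal deviate. The submitters' processing notes name mm10, but 6 of 90 member loci overlapped their gene in GENCODE M21 of that build, so the build of the deposited coordinates is unsettled. No fit over libraries (limma) could be made. Genes were named by rule: Pim1, called members, the 2 most abundant, the least abundant and the 2 largest rises and falls of each complex, redox and catalytic subunits, paralogs, and called and most abundant genes of related lists; others were named after their values were seen. One member is counted in the totals and is not reported here by name. Members and lists were chosen with earlier results of these data known. The normal-deviate reading was also run on simulated data, in which the statistic was a normal deviate by construction. That run therefore could not show whether the reading suits the deposited statistic. Python 3.11.15, pandas 2.3.3, numpy 2.4.6, scipy 1.17.1 and matplotlib 3.10.9 were used.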

Additional observations from a re-analysis of the deposited data

How the results depend on the processing

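No paired analysis was possible because the deposited table holds 1 pooled value per genotype, and leaving out libraries was not run for the same reason. A normal-deviate reading of the statistic called 0 members, against 5, and 0 in each of complexes I, III and IV. In related lists it called 0 of the assembly factor, TCA cycle, quinone, coenzyme Q and hypoxia genes, each with 1 call otherwise, and 2 monocyte genes against 4. At a q-value under 0.01, Ndufa4 and Cox7a2l were the 2 calls, 1 in complex I, 0 in complex III. At a q-value under 0.1 there were 7, with Ndufaf2 and Atp5c1 added, 1 of them in complex V. Keeping means of at least 10 and adjusting again left 4 calls, 1 in complex I (Ndufa4). Added after the data were seen, leaving out members that share a 50-base run gave 2 calls, 1 in complex I, 1 in complex III and 0 in complex IV, and leaving out chromosome 17 gave 3, with 1 in complex I and 0 in complex IV. Counting Ndufa4 in complex IV, also added later, gave 1 call in complex I and 2 in complex IV. Over 11 alternatives (pseudocounts, scalings, filters and membership) the median of complex I ranged from 0.08 to 0.17 and that of complex IV from -0.09 to -0.00, whereas those of complex V (-0.06 to 0.02) and complex II (-0.03 to 0.05) took both signs. Depth per library is unknown and sets no limit that can be stated.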
